A study of Mus musculus with 12 samples.

Results

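The genes described here are 10 rows of the count table, taken by gene symbol: the lysosomal proteases cathepsin A, B, C, D, H, L, S and Z (Ctsa, Ctsb, Ctsc, Ctsd, Ctsh, Ctsl, Ctss and Ctsz), legumain (Lgmn) and the protease inhibitor cystatin C (Cst3). They are 10 of 24328 gene symbols, and all 10 passed the filter on low counts that left 12695 genes for testing. Microglia, the brain's own macrophages, were isolated by FACS, and all mice were Balb/c of wild-type genotype, with 4 libraries in each of 3 groups; the labels give 4 mice per group. The control group had no transplant. In the other groups, lethal irradiation preceded a graft of 5000000 bone marrow cells together with 300000 T cells, from a syngeneic donor in 1 group and an allogeneic donor in the other. Tissue was taken after perfusion on day 14, when GvHD (graft-versus-host disease, in which T cells of the graft attack the recipient) was at its peak according to the labels. No group was irradiated without a transplant, so irradiation and transplantation cannot be told apart. Donor strain, sort gate and the age and sex of the mice were not given in the sources used here, and host microglia and any donor-derived cells in the gate share each library.

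Cathepsins are proteases of the endosome and lysosome that are made as inactive precursors and matured by cleavage. Most are cysteine proteases, but cathepsin D is an aspartic protease and cathepsin A a serine carboxypeptidase. In antigen-presenting cells they degrade the invariant chain (Cd74), which frees MHC class II molecules to bind peptides. Cystatin C is a secreted inhibitor that binds the active site of cysteine cathepsins, and microglia are among its abundant producers in the brain.

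Sequences before the start sites of 4 of these genes are shown because the genes followed different courses over the 3 groups. Ctss was higher at each step from control through syngeneic to allogeneic, and Ctsc was high in allogeneic libraries. Ctsd was lower in both transplanted groups than in control, which a correction for GC content and transcript length, given below, did not keep. Cst3 went up and then down. Each sequence is the 250 bases before the RefSeq start in build GRCm38.p6, on the strand of the gene. The submitters' processing notes name mm9 for the reads, so these coordinates hold for GRCm38.p6 only. Ctss lies at chr3:95526536-95526785 on the plus strand, Ctsc at chr7:88277835-88278084 on the plus strand, Ctsd at chr7:142387828-142388077 on the minus strand and Cst3 at chr2:148875513-148875762 on the minus strand. Capitals mark matches on either strand to 1 of 4 motifs.
Ctss: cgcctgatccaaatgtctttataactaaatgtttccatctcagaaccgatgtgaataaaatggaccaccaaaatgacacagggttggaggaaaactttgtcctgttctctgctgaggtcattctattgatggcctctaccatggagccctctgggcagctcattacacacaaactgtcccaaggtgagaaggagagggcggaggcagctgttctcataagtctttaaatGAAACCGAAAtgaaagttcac
Ctsc: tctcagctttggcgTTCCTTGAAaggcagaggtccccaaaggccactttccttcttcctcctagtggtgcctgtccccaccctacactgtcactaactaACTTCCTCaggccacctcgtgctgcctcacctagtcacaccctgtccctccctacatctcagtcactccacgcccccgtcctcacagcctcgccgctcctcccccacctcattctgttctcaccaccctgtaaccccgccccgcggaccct
Ctsd: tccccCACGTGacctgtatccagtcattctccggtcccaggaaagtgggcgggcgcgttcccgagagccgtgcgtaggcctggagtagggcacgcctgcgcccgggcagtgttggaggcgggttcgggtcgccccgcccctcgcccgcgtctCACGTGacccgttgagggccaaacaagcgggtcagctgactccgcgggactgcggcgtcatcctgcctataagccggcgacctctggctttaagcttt
Cst3: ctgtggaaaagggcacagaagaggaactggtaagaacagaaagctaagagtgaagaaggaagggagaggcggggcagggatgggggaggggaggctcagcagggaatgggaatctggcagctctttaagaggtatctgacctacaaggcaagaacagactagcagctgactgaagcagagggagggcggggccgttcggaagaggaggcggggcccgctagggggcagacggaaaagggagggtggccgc
The Ctss window held 1 match to GAAA, any 2 bases and GAAA again, a repeat found in the interferon-stimulated response element, at 21 to 12 bases before the start; 2.98% of the 32851 RefSeq promoter windows of the same length hold one. The Ctsc window held TTCNNNGAA, the form of the gamma-activated site bound by STAT factors, which 7.02% of windows hold, and GAGGAAGT, a core site of the myeloid factor PU.1 (2.44% of windows), with no overlap between them. The Ctsd window held CACGTG, the E-box that TFEB-family factors bind, at 245 to 240 and again at 98 to 93 bases before the start; 6.02% of windows hold at least 1. Over the 10 windows of the 8 members with a promoter entry, 4 held CACGTG and 1 each held the other motifs, and the Cst3 window held none of these letters. A match is a description of the sequence and not a measured site.

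Levels are given as CPM (counts scaled to the size of the library, with TMM factors), and a gene is said to rise or fall only where edgeR's quasi-likelihood test gave an adjusted p under 0.05 over all tested genes. Library totals ranged from 32652208 to 46126118 counts, and within groups the libraries correlated at Spearman rho of 0.975 to 0.984. The microglia markers P2ry12, Tmem119, Sall1, Siglech, Cx3cr1, Csf1r and Fcrls were detected in every group. They summed to 35952 to 40683 CPM in control, 29337 to 31714 in syngeneic and 19021 to 20099.5 in allogeneic libraries. Of these 7, 0 rose and 6 fell in allogeneic against syngeneic (10.1% and 6.38% of all tested genes). In syngeneic against control 3 rose (P2ry12, Siglech and Fcrls) and 4 fell (26.4% and 25.6%). In allogeneic against control 1 rose and 6 fell (28.2% and 29.1%). The 10 genes together took 10.78% to 11.62% of all counts in control, 11.82% to 12.45% in syngeneic and 10.25% to 10.61% in allogeneic libraries. Cst3 alone took 5.62% to 6.19%, 6.42% to 7.38% and 3.63% to 3.91% of all counts, in the same order of groups. In sorted but mixed RNA, fewer cells of a type and less RNA per cell cannot be told apart.

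In allogeneic against syngeneic libraries, the comparison that asks what the allogeneic graft adds to irradiation and transplantation, 7 of the 10 genes rose (10.1% of all tested genes were called higher) and Cst3 fell (6.38% of all tested genes were called lower). The 7 were Ctsc, Ctsz, Ctss, Ctsl, Ctsh, Ctsb and Ctsd, and the median log2 fold change of the 10 genes was 0.74 against -0.01 over all tested genes. The 4 allogeneic libraries lay wholly above the 4 syngeneic ones for 6 of the 10 genes (12.6% of all tested genes) and wholly below them for Cst3 (8.1% of all tested genes). In all, 8 of the 10 were called (16.5% of all tested genes), and 7 had groups that did not overlap (20.7%). In syngeneic against control, which differ by irradiation and a syngeneic graft, 8 of the 10 were called (52.1% of all tested genes): Ctss, Ctsl, Lgmn and Cst3 rose (26.4% of all genes were called higher) and Ctsa, Ctsb, Ctsd and Ctsh fell (25.6% were called lower), with a median of 0.03 against -0.03 over all tested genes. All 8 had groups that did not overlap (50% of all tested genes), 4 of them higher (24.6%) and 4 lower (25.5%). In allogeneic against control 9 were called (57.3% of all tested genes), 6 higher (28.2%) and 3 lower (29.1%), with a median of 0.63 against -0.07. Of these, 7 had groups that did not overlap (53.8%), 5 higher (26.2%) and 2 lower (27.7%). With library totals alone the split was 6 higher and 2 lower in allogeneic against syngeneic and 5 higher and 4 lower in allogeneic against control. The comparisons share libraries, so they are not independent of each other, and the share of all genes called was far larger against control than between the transplanted groups.

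**Figure D1:**
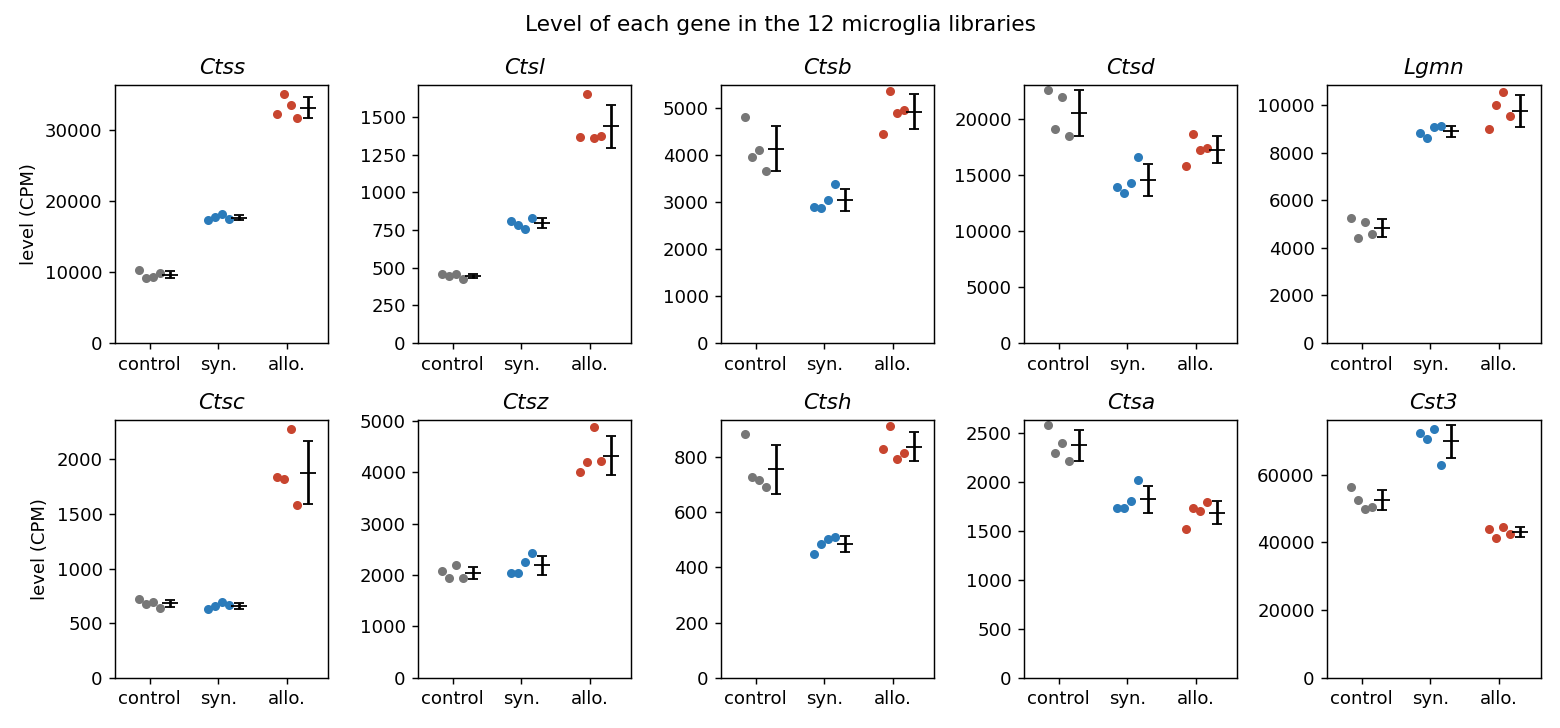
Level of each of the 10 genes (y axis, CPM, from 0) in the 4 control, 4 syngeneic (syn.) and 4 allogeneic (allo.) libraries; points are libraries, and the bar beside them is the mean ± SD (n = 4). Ctss stood near 9632, 17639 and 33134 CPM in the 3 groups with no overlap, while Cst3 was highest in syngeneic and lowest in allogeneic libraries.

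Among the endopeptidases, which cut inside protein chains, Ctss and Ctsl rose at both steps. Ctss, the cathepsin that degrades the invariant chain in bone marrow-derived antigen-presenting cells and stays active at neutral pH, was at 10214, 9141, 9322 and 9849.7 CPM in control libraries, 17304, 17711, 18142 and 17399 in syngeneic and 32278, 35029, 33524 and 31703 in allogeneic libraries. No 2 groups overlapped, and the spread within each was small beside the steps between them. Its log2 fold change was 0.87 (SE 0.05, adjusted p = 9.32e-11) in syngeneic against control and 0.91 (SE 0.05, adjusted p = 2.17e-10) in allogeneic against syngeneic; as linear folds these steps were 1.83 and 1.88. Ctsl, a broad endopeptidase that also trims other cathepsins, was at 459, 443, 456 and 424 CPM in control, 809, 784, 756 and 831 in syngeneic and 1372, 1653, 1361 and 1377 in allogeneic libraries. Its groups did not overlap either, and the highest allogeneic library, number 2, stood apart from the other 3. The log2 fold change of Ctsl was 0.84 (SE 0.07, adjusted p = 8.82e-09) in syngeneic against control and 0.86 (SE 0.07, adjusted p = 2.25e-08) in allogeneic against syngeneic, and 0.78 in the latter without allogeneic 2. Over both steps together Ctss stood 3.44-fold and Ctsl 3.23-fold above control.

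Ctsb and Ctsd followed another course, with their lowest levels in syngeneic libraries. Ctsb, which can act both inside a chain and as a dipeptide-removing enzyme at its end, was at 4808, 3973, 4108 and 3665 CPM in control, 2891, 2867, 3042 and 3386 in syngeneic and 4464, 5372, 4910.4 and 4974 in allogeneic libraries. The syngeneic libraries lay below all others, whereas control and allogeneic libraries overlapped. Ctsb fell in syngeneic against control (log2 fold change -0.44, SE 0.08, adjusted p = 0.000122), rose in allogeneic against syngeneic (0.69, SE 0.08, adjusted p = 2.98e-06) and was a little higher in allogeneic than in control libraries (0.25, SE 0.08, adjusted p = 0.0105), although scaling by library totals alone put the last value at -0.12 (edgeR adjusted p = 0.179). Ctsd, the main aspartic protease of the lysosome, was at 22579.5, 19094, 21940.5 and 18519.5 CPM in control, 13926, 13391, 14324 and 16594 in syngeneic and 15777, 18644, 17213 and 17437 in allogeneic libraries. Syngeneic and allogeneic libraries overlapped for Ctsd, as did allogeneic and control libraries. The log2 fold change of Ctsd was -0.50 (SE 0.08, adjusted p = 2.13e-05) in syngeneic against control, -0.25 (SE 0.07, adjusted p = 0.00819) in allogeneic against control and 0.25 (SE 0.07, adjusted p = 0.0295) in allogeneic against syngeneic. The rise between the transplanted groups lost the call without syngeneic 1, 2 or 3 or allogeneic 2, 3 or 4 (edgeR adjusted p between 0.0567 and 0.0997), and with library totals alone it was 0.04 (edgeR adjusted p = 0.712).

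Legumain, the protease that cuts after asparagine and converts several cathepsins to their mature chains, went up in both transplanted groups. Lgmn was at 5242, 4423, 5076 and 4566 CPM in control, 8808, 8599.7, 9061 and 9108 in syngeneic and 8969, 10011, 10535 and 9532 in allogeneic libraries. Every transplanted library lay above every control library, and syngeneic and allogeneic libraries overlapped. The log2 fold change was 0.88 (SE 0.06, adjusted p = 1.49e-09) in syngeneic and 1.02 (SE 0.06, adjusted p = 1.03e-10) in allogeneic libraries against control. Between the transplanted groups it was 0.13 (SE 0.06, adjusted p = 0.158), with a 95% interval of 0.00 to 0.26, and -0.07 under library totals alone.

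The exopeptidases, which remove residues from chain ends, were led by Ctsc and Ctsz. Ctsc, the dipeptidyl peptidase that activates the granule serine proteases of leukocytes, was at 719.5, 672, 692 and 640.0 CPM in control, 628, 652, 695 and 666 in syngeneic and 1836, 1822, 2282 and 1583 in allogeneic libraries. Control and syngeneic libraries overlapped, and every allogeneic library lay above the highest of them. The log2 fold change was 1.51 (SE 0.09, adjusted p = 4.49e-10) in allogeneic against syngeneic, the largest of the 10 genes in that comparison, and -0.04 (SE 0.08, adjusted p = 0.694) in syngeneic against control with a 95% interval of -0.22 to 0.13. Ctsz, a carboxypeptidase that takes off single residues and also binds integrins, was at 2072, 1942, 2186 and 1938 CPM in control, 2042, 2031, 2261 and 2422 in syngeneic and 4002, 4205, 4881 and 4216 in allogeneic libraries. Here too the allogeneic libraries stood apart and the other groups overlapped, with a log2 fold change of 0.98 (SE 0.07, adjusted p = 9.3e-09) against syngeneic. In syngeneic against control the value for Ctsz was 0.11 (SE 0.07, adjusted p = 0.233), with a 95% interval of -0.04 to 0.26.

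Ctsh, an aminopeptidase, had the course of Ctsb. It was at 885, 729, 718 and 691 CPM in control, 447, 484, 503 and 511 in syngeneic and 832, 913, 795 and 815 in allogeneic libraries, and the syngeneic libraries lay below all others. Ctsh fell by 0.64 on the log2 scale in syngeneic against control (SE 0.08, adjusted p = 1.7e-06) and rose by 0.79 (SE 0.08, adjusted p = 4.77e-07) in allogeneic against syngeneic. Allogeneic and control libraries overlapped, at 0.15 (SE 0.08, adjusted p = 0.106) with a 95% interval of -0.01 to 0.31; without control 1, the highest control library, the value was 0.23 and was called (edgeR adjusted p = 0.00707), and under library totals alone it was -0.22 (edgeR adjusted p = 0.0166). Ctsa, the serine carboxypeptidase that also shields the lysosomal sialidase Neu1 and the galactosidase Glb1 in a complex, was at 2587, 2303, 2400.2 and 2222 CPM in control, 1736, 1734, 1812 and 2026 in syngeneic and 1521, 1737, 1707 and 1793 in allogeneic libraries. It was lower in every transplanted library than in every control library, with log2 fold changes of -0.38 (SE 0.07, adjusted p = 0.000128) in syngeneic and -0.49 (SE 0.07, adjusted p = 5.8e-06) in allogeneic libraries. The transplanted groups overlapped at -0.11 (SE 0.07, adjusted p = 0.306), with a 95% interval of -0.26 to 0.03.

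Cst3 was the 1 gene of the 10 that fell in allogeneic against syngeneic libraries. It was at 56511, 52596, 50019.9 and 50597 CPM in control, 72268, 70659, 73568 and 62928 in syngeneic and 43824, 41359, 44636 and 42464 in allogeneic libraries. No groups overlapped: syngeneic libraries were highest and allogeneic libraries lowest. Cst3 rose in syngeneic against control (log2 fold change 0.41, SE 0.05, adjusted p = 3.68e-06), fell in allogeneic against syngeneic (-0.70, SE 0.05, adjusted p = 1.83e-08) and was lower in allogeneic than in control libraries (-0.28, SE 0.05, adjusted p = 0.000189). Each of these calls was kept in all 21 alternative analyses. Choroid plexus markers (Ttr, Folr1, Kl, Kcnj13 and Clic6), from a tissue that also makes cystatin C, summed to 12.9 to 96.7 CPM in control, 1092 to 1928 in syngeneic and 338.6 to 604.7 in allogeneic libraries. All 5 rose in syngeneic against control (26.4% of all tested genes were called higher). In allogeneic against syngeneic 1 of them, Folr1, fell (6.38% of all tested genes were called lower). Their summed level was highest in syngeneic libraries, as was Cst3, and their part in the Cst3 values was not tested. Astrocyte markers (Gfap, Aqp4, Aldh1l1 and Slc1a2) summed to 0.843 to 5.26 CPM in control, 13.2 to 25.1 in syngeneic and 11.2 to 26.1 in allogeneic libraries. Of these 4, 3 rose in syngeneic against control (26.4% of all tested genes). In allogeneic against syngeneic 1 rose and 0 fell by edgeR (10.1% and 6.38% of all tested genes). Their part was not tested either.

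**Figure D2:**
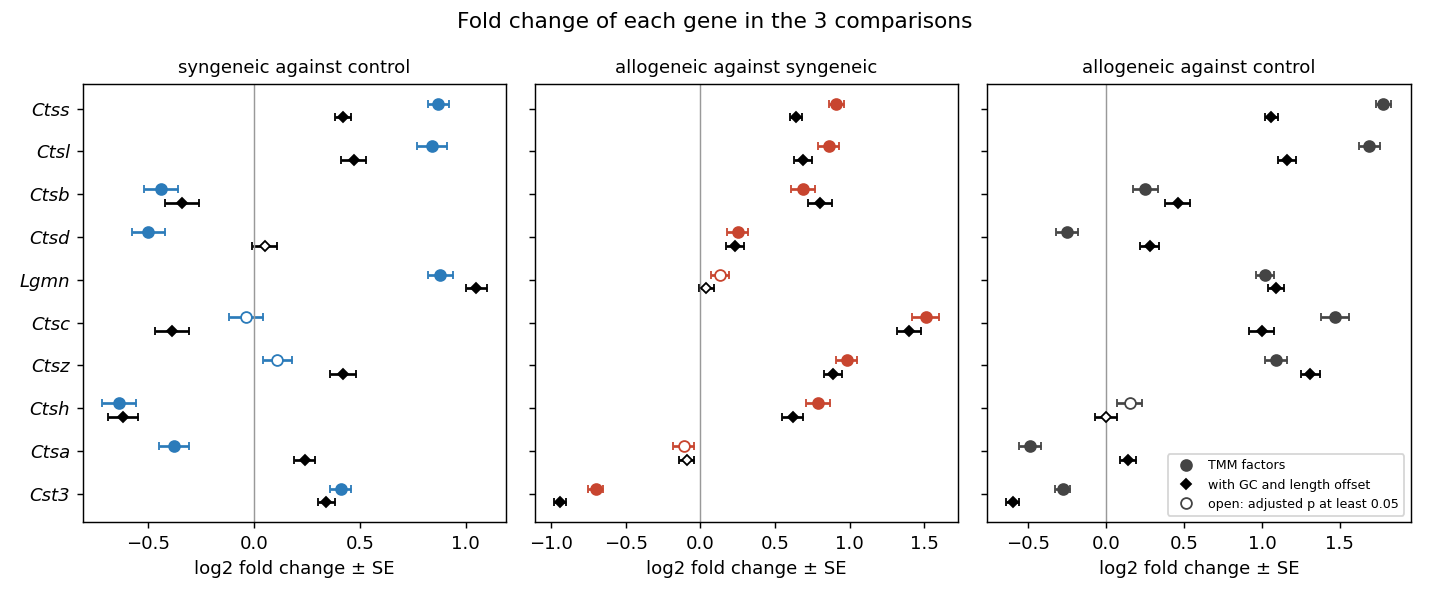
Log2 fold change ± SE (x axis) of the 10 genes (rows) in the 3 comparisons, from the edgeR fit with TMM factors (circles) and with the GC and length offset (diamonds); open symbols mark an adjusted p of at least 0.05. In allogeneic against syngeneic the signs are the same for all 10 genes with both fits, whereas Ctsa and Ctsd change sign against control and Ctsh in allogeneic against control goes from 0.15 to 0.00.

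Several values against control differed between the fit with TMM factors and a fit that also corrected for GC content and transcript length together. Across genes, log2 fold changes against control ran with GC content (Spearman rho -0.31 in syngeneic and -0.28 in allogeneic libraries, a description over genes, which are not replicates), and the transcripts of the 10 genes ranged from 43.9% GC in Ctsc to 57.3% in Ctsz, with Ctsa at 55.7%, Ctsd at 55.9% and Cst3 at 57.2%. With this correction (the offset), chosen after seeing the data, Ctsa in syngeneic against control turned from -0.38 to 0.24 (edgeR adjusted p = 0.00151) and Ctsd from -0.50 to 0.05 (edgeR adjusted p = 0.519). In allogeneic against control Ctsa turned to 0.14 (edgeR adjusted p = 0.033) and Ctsd to 0.28 (edgeR adjusted p = 0.000395). The falls of both genes against control were thus not kept with the offset. The offset also gave Ctsc a fall of 0.39 on the log2 scale in syngeneic against control (edgeR adjusted p = 0.000731) and Ctsz a rise of 0.42 (edgeR adjusted p = 2.11e-05), where neither was called before. Ctss against control dropped from 1.78 to 1.06 in allogeneic libraries and stayed called. Cst3 against control went from 0.41 to 0.34 in syngeneic and from -0.28 to -0.60 in allogeneic libraries, both still called. Ctsh in allogeneic against control, not called at 0.15, went to 0.00. In allogeneic against syngeneic, where the correlation with GC content was -0.04 and that with transcript length -0.21, the offset changed no call among the 10 genes.

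Per kilobase of transcript, which allows levels of different genes to be compared, Cst3 was by far the most abundant of the 10 in every group, at 60966 ± 3413 CPM per kb in control, 81228 ± 5546 in syngeneic and 50082 ± 1687 in allogeneic libraries (SD, n = 4). In control the proteases followed in the order Ctsd (9654 ± 952), Ctss (7108 ± 362.5), Lgmn (2425 ± 198), Ctsz (1412 ± 82.5), Ctsa (938.5 ± 61.9), Ctsb (872.5 ± 101.9), Ctsh (467 ± 54.2), Ctsc (273 ± 13.4) and Ctsl (226 ± 7.98), where Ctsa and Ctsb did not differ beyond their SDs. In both transplanted groups Ctss led the proteases, at 13018 ± 279 in syngeneic and 24453 ± 1088.5 CPM per kb in allogeneic libraries, with Ctsd next at 6845 ± 663 and 8118 ± 553. In allogeneic libraries Ctsc (754 ± 117), Ctsl (731 ± 72.0) and Ctsa (667 ± 46.5) lay within their SDs of each other. Ctss made up 30.5% ± 1.76 of the summed protease transcripts per kb in control, 46.2% ± 1.80 in syngeneic and 55.3% ± 1.02 in allogeneic libraries. The share of Ctsd went the other way, from 41.2% ± 1.56 through 24.3% ± 1.55 to 18.4% ± 0.717, and that of Lgmn was highest in syngeneic libraries at 15.9% ± 0.25. These shares depend on the transcript chosen for each length and carry no GC and length offset, with which Ctsd against control was 0.05 in syngeneic and 0.28 in allogeneic libraries and Ctss 0.42 and 1.06.

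The ratio of Cst3 to 6 cysteine cathepsin transcripts was lowest in allogeneic libraries. Lgmn and inhibitors other than Cst3 are not part of this ratio. Cst3 per kb divided by the sum of the 6 cysteine cathepsins Ctsb, Ctsc, Ctsh, Ctsl, Ctss and Ctsz per kb was 5.942, 6.192, 5.693 and 5.72 in control, 5.34, 5.121, 5.162 and 4.506 in syngeneic, and 1.728, 1.501, 1.66 and 1.69 in allogeneic libraries. The 3 groups did not overlap, and the allogeneic ratio was below the lowest syngeneic one in every library. The ratio is given as a description with no test, since Cst3 and the cathepsins were tested one by one. It carries no GC and length offset. In syngeneic against control the offset moved Cst3 from 0.41 to 0.34 and Ctss, the most abundant of the 6, from 0.87 to 0.42. Whether the ratio still differs between control and syngeneic libraries with the offset was not tested. In allogeneic against syngeneic the offset gave -0.94 for Cst3 and 0.64 for Ctss.

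**Figure D3:**
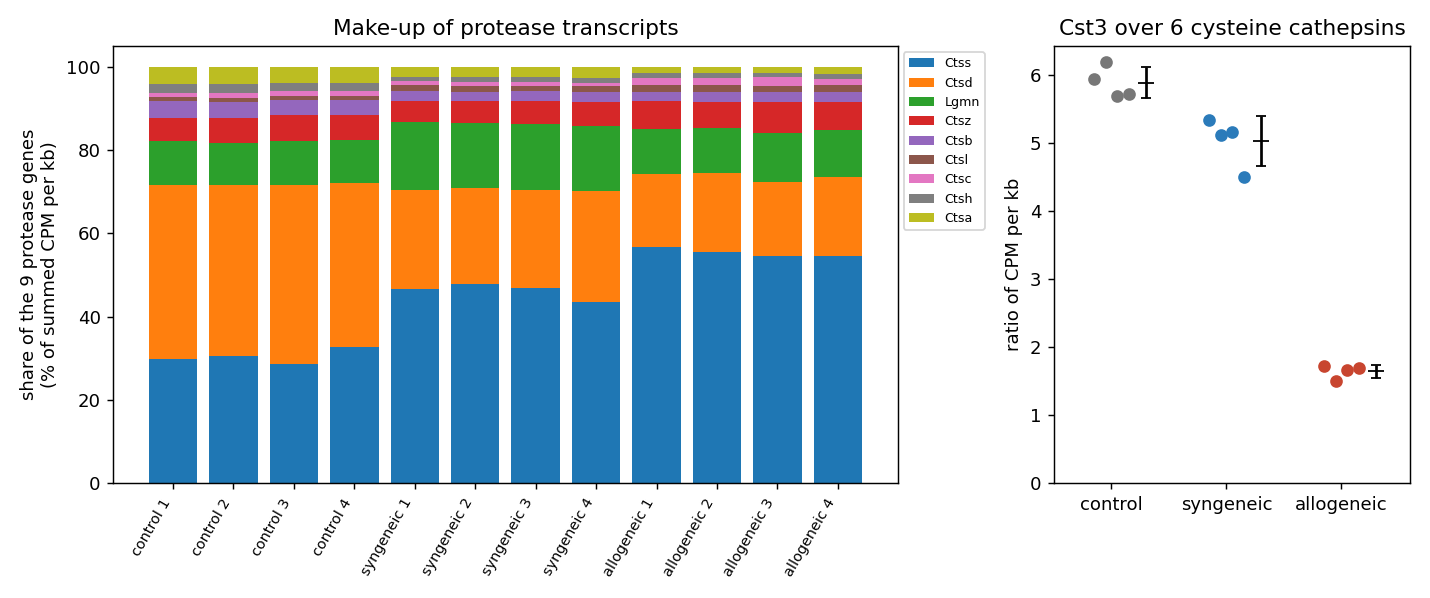
Left, share of each of the 9 protease genes in their summed CPM per kb (y axis, percent) in each of the 12 libraries; right, ratio of Cst3 to the 6 summed cysteine cathepsins, in CPM per kb, per library (points) with the mean ± SD (n = 4). Ctss takes the largest share in every transplanted library and Ctsd in every control library, and the ratio lies between 1.501 and 1.728 in allogeneic libraries.

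Among the other cathepsins, 4 of 15 passed the filter. Ctse, an aspartic protease of endosomes, was at 9.86, 7.41, 16.9 and 12.8 CPM in control, 31.0, 55.6, 39.8 and 43.6 in syngeneic and 128, 141, 133 and 149 in allogeneic libraries, with no overlap between groups. Ctse rose at each step, by 1.85 (SE 0.21, adjusted p = 5.34e-07) on the log2 scale in syngeneic against control and 1.69 (SE 0.20, adjusted p = 5.05e-06) in allogeneic against syngeneic. Ctsf, a cysteine cathepsin, stood at 369 ± 43.6 CPM in control, 164 ± 10.7 in syngeneic and 153 ± 17.8 in allogeneic libraries and fell in both transplanted groups against control (log2 fold change -1.17, SE 0.10, adjusted p = 1.29e-08 in syngeneic). Ctso, another cysteine cathepsin, rose in allogeneic against syngeneic libraries, from 79.7 ± 8.48 to 108.9 ± 6.55 CPM (log2 fold change 0.45, SE 0.12, adjusted p = 0.0104; 0.25, edgeR adjusted p = 0.133, under library totals alone). Ctsw, a cathepsin of cytotoxic lymphocytes, had 191 counts over the 4 control libraries and 2 over each transplanted group, and it was called lower in both against control (edgeR adjusted p = 0.00368 in syngeneic and 0.00445 in allogeneic). Ctsk, the collagen-degrading cathepsin of osteoclasts, did not pass the filter, nor did the neutrophil protease Ctsg or the rodent-specific placental cathepsins.

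Some other protease inhibitors rose in the comparison in which Cst3 fell. Of 17 listed, 6 were tested. In allogeneic against syngeneic 4 rose and 0 fell by edgeR (10.1% and 6.38% of all tested genes). The 6 had a median log2 fold change of 1.08 against -0.01 over all tested genes. Serpinb6a (edgeR adjusted p = 0.174) and Ctla2a (edgeR adjusted p = 0.932) were not called. DESeq2 called 3 of the 6 higher, and no tool used here called one lower, nor did an unadjusted p under 0.05. Cst7, cystatin F, an endosomal inhibitor that acts on cathepsin C among others, was at 2.5, 2.58, 3.9 and 1.4 CPM in control, 10.7, 18.0, 17.4 and 21.2 in syngeneic and 259.8, 417, 354 and 297 in allogeneic libraries. Its log2 fold change of 4.30 (SE 0.27, adjusted p = 2.36e-08) was far larger than that of any protease among the 10. Cstb, the cytosolic inhibitor stefin B, was at 42.4 to 51.6 CPM in control, 96.7, 102, 98.9 and 95.2 in syngeneic and 207, 211, 231 and 201 in allogeneic libraries, a step up each time (1.11, SE 0.08, adjusted p = 1.47e-08 in allogeneic against syngeneic). Ctla2b, which resembles the inhibitory propeptide of a cathepsin and has a close copy in Ctla2a with which it may share reads, rose from 11.6 ± 1.68 to 23.9 ± 3.14 CPM (1.05, SE 0.20, adjusted p = 0.00103). The whole list summed to 51.7 to 61.1 CPM in control, 130.8 to 139.6 in syngeneic and 503.3 to 676.6 in allogeneic libraries.

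Genes that work with these proteases were read from lists. All 8 tested partners and substrates rose in allogeneic against syngeneic libraries, where 10.1% of all tested genes were called higher. Their median log2 fold change was 1.17 against -0.01 over all tested genes. In syngeneic against control 2 of them rose and 3 fell (26.4% and 25.6% of all tested genes), with a median of -0.24 against -0.03. Cd74, the invariant chain that cathepsin S degrades, was at 53.8 to 69.4 CPM in control, 159.8 to 233.2 in syngeneic and 11746 to 14855 in allogeneic libraries. H2-DMa and H2-DMb1, the chains of the class II peptide editor, rose by 1.58 (SE 0.09, adjusted p = 4.98e-10) and 3.35 (SE 0.18, adjusted p = 1.6e-10) on the log2 scale. Of 5 tested lysosomal peptidases outside the cathepsins, 3 rose and 0 fell in allogeneic against syngeneic (10.1% and 6.38% of all tested genes). The 3 were Cpq, a carboxypeptidase (1.47, SE 0.22, adjusted p = 8.47e-05), Scpep1, a serine carboxypeptidase (0.99, SE 0.14, adjusted p = 3.7e-05), and Dpp7, a dipeptidyl peptidase (0.42, SE 0.12, adjusted p = 0.0188). Dpp7 lost the call without syngeneic 3 or 4 or allogeneic 3, under library totals alone and with the GC and length offset (edgeR adjusted p between 0.0604 and 0.181). Of 9 genes that help sort such enzymes to the lysosome, most by the mannose 6-phosphate route, 2 rose and 0 fell by edgeR (10.1% and 6.38% of all tested genes). At an unadjusted p under 0.05 the edgeR count was 3 lower, and DESeq2 and limma-voom called 0 lower. The 2 that rose were the receptor M6pr (0.60, SE 0.10, adjusted p = 0.000154) and the tagging enzyme subunit Gnptab (0.69, SE 0.21, adjusted p = 0.0281). Gnptab lost the call without syngeneic 1, 3 or 4 or allogeneic 3 or 4 and under library totals alone (edgeR adjusted p between 0.0695 and 0.111). The adaptor Gga3 stood at 120 ± 10.3 CPM in control, 27.1 ± 8.05 in syngeneic and 19.4 ± 4.99 in allogeneic libraries, with a log2 fold change of -2.14 (SE 0.20, adjusted p = 6.22e-08) in syngeneic against control. Between the transplanted groups Gga3 was not called, but it was called lower with library totals alone (-0.68, edgeR adjusted p = 0.0201), without syngeneic 1 (-0.65, edgeR adjusted p = 0.0145) and without allogeneic 4 (-0.66, edgeR adjusted p = 0.0273).

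Regulators of lysosomal genes differed among themselves. Of Tfeb, Tfe3, Mitf and Tfec, factors that bind the E-box, edgeR called 0 higher and 0 lower between allogeneic and syngeneic libraries (10.1% and 6.38% of all tested genes). At an unadjusted p under 0.05 the edgeR counts were 0 higher and 2 lower, DESeq2 called 0 and limma-voom called 1 higher and 0 lower. Tfe3 was called lower with library totals alone (-0.52, edgeR adjusted p = 0.00267), with a replicate block (-0.31, edgeR adjusted p = 0.0338) and without syngeneic 2 or allogeneic 3. Tfeb was called lower with library totals alone (-0.68, edgeR adjusted p = 0.0116) and without syngeneic 4. Tfeb was at 30.6 ± 4.12 CPM in control, 15.7 ± 3.16 in syngeneic and 11.3 ± 1.28 in allogeneic libraries, and fell in syngeneic against control (-0.96, SE 0.18, adjusted p = 0.000215). Tfe3 was at 136 ± 6.23, 78.2 ± 11.5 and 63.0 ± 7.96 CPM in the same order and also fell in syngeneic against control (-0.80, SE 0.11, adjusted p = 1.17e-05). With the GC and length offset both falls lost the call in syngeneic libraries. In allogeneic against control, Tfe3 went from -1.11 to -0.26 with the offset and also lost the call (edgeR adjusted p = 0.0846). There the call of Tfeb (-1.44) was kept in all 21 alternative analyses. Mitf went the other way, from 28.9 ± 3.30 CPM in control to 41.8 ± 6.90 in syngeneic and 40.3 ± 6.35 in allogeneic libraries, and rose in both against control, with log2 fold changes of 0.53 (SE 0.15, adjusted p = 0.00701) in syngeneic and 0.48 (SE 0.15, adjusted p = 0.012) in allogeneic libraries. Tfec stayed at or under 2.72 CPM in every library.

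**Figure D4:**
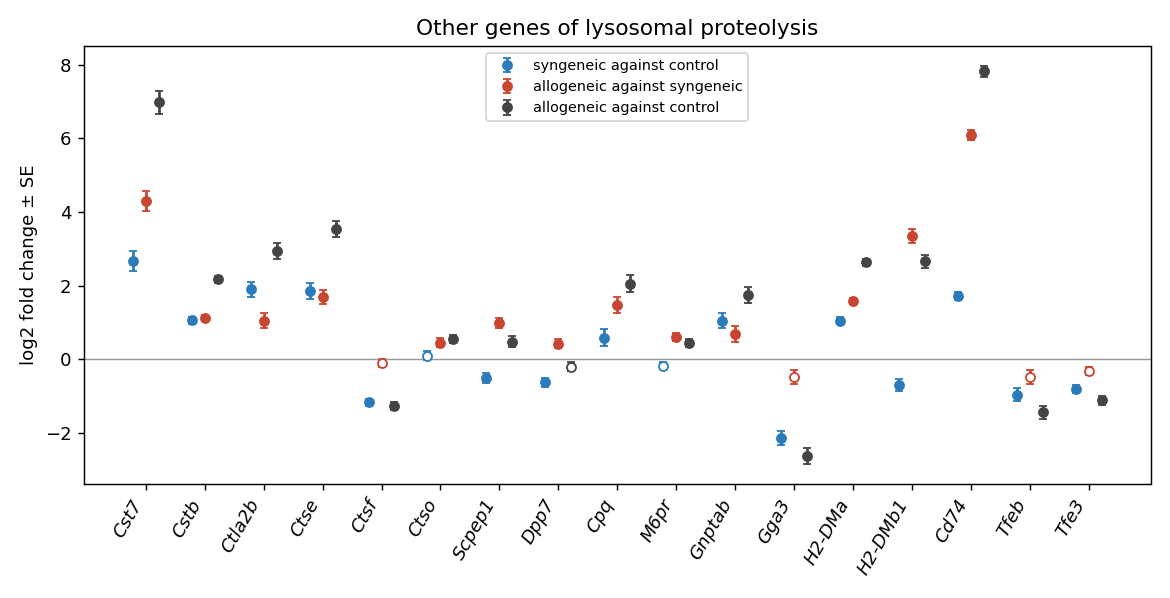
Log2 fold change ± SE (y axis) of 17 other genes of lysosomal proteolysis (x axis) in syngeneic against control (blue), allogeneic against syngeneic (red) and allogeneic against control (dark grey); open symbols mark an adjusted p of at least 0.05. The inhibitors Cst7, Cstb and Ctla2b rose in all 3 comparisons, and Cd74 had the largest change shown.

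Markers of other myeloid cells, which also express cathepsins, were read beside the rises of Ctss, Ctsc, Ctsz and Ctsl. The 7 monocyte markers (Ly6c2, Ccr2, Plac8, Chil3, S100a4, Fn1 and Ms4a7) summed to 9.92 to 17.6 CPM in control, 21.2 to 39.2 in syngeneic and 123 to 155.9 in allogeneic libraries. Of 6 tested, 3 rose in allogeneic against syngeneic, namely Plac8, Fn1 and Ms4a7 (10.1% of all tested genes were called higher). Plac8 alone accounted for 63.1 to 103.5 CPM and Fn1 for 22.2 to 31.0 CPM in allogeneic libraries. Ccr2 went the other way, at 6.99 to 12.3 CPM in control and 1.72 to 7.42 in allogeneic libraries, and fell in allogeneic against control (edgeR adjusted p = 0.0112), and S100a4 was not called. The 6 dendritic cell markers summed to 35.5 to 41.1, 16.8 to 24.0 and 77.4 to 138 CPM. Of 4 tested, 2 rose in allogeneic against syngeneic (10.1% of all tested genes), namely Itgax and Flt3. Itgax accounted for 73.9 to 131.9 CPM in allogeneic libraries. Flt3 had means of 15.4 CPM in control, 1.15 in syngeneic and 2.96 in allogeneic libraries. Against control it fell in both transplanted groups (edgeR adjusted p = 2.83e-07 in syngeneic and 2.34e-05 in allogeneic). Clec9a was at 0 in syngeneic and Cd209a at 0 in allogeneic libraries. Border-associated macrophage markers summed to 1.49 to 6.54, 21.8 to 34.6 and 20.8 to 28.4 CPM, T cell markers to at most 4.24 CPM, neutrophil markers to at most 8.09 CPM and B cell markers to at most 0.901 CPM in any library. The part of monocyte and dendritic cell RNA in the cathepsin values was not tested.

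Each gene was also set beside the genes most like it over the 12 libraries, by Pearson correlation of log2 CPM among 4192 well-expressed genes. The 12 points fall into the 3 groups, so these correlations mainly describe shared steps between groups. Ctss ran closest with Cstb and Cd52 (r = 0.998 for each), a small surface glycoprotein gene of leukocytes, and Ctsl with the lysozyme gene Lyz2 (0.996) and with Ctss (0.994). Ctsc ran with Samhd1, a dNTP hydrolase (0.984), and the interferon-inducible nuclear body gene Sp110 (0.984), and Ctsz with the MHC class I gene H2-T23 (0.986) and Ctsc (0.982). Ctsb and Ctsh were closest to each other (0.963), followed by the costimulatory ligand Icosl for Ctsb (0.957) and the class I loading factor Tapbp for Ctsh (0.933). Cst3 ran with the homeostatic microglia receptor genes P2ry12 (0.987) and Gpr34 (0.972). P2ry12 stood at 12080.5 CPM in control, 17287 in syngeneic and 9081 in allogeneic libraries, the same order of groups as Cst3. With the GC and length offset the rise of P2ry12 in syngeneic against control was lost (0.52 to 0.03, edgeR adjusted p = 0.757), while that of Cst3 was kept. Lgmn ran with Park7 (0.995) and Ran (0.993), Ctsa with Hsf1 (0.981) and Irak2 (0.973), and Ctsd with the lysosomal membrane gene Glmp (0.956) and the tRNA synthetase gene Qars (0.951). Lyz2, Sp110 and H2-T23 belong to families of similar genes, so their counts are uncertain.

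Some exons of these genes lie over exons of other genes in the GENCODE M21 annotation, and no source used here says whether counting used strand, so reads of such pairs cannot be told apart. Ctsa shares 495 exon bases with Pltp and 324 with Neurl2, both on the opposite strand, Ctsb shares 774 with Fdft1 and Ctsz 10 with Nelfcd. The rows of these neighbours were low: Pltp had group means of 2.68 to 8.91 CPM, Fdft1 of 12.5 to 17.9 and Nelfcd of 32.0 to 90.4, against at least 1689.6 for Ctsa, 3046.5 for Ctsb and 2034 for Ctsz. The longest overlap was that of Ctsl. Over all its annotated exons, Ctsl shares 1742 bases with the predicted gene Gm47123 on the opposite strand and 395 with Gm49230 on the same strand. Ctsd shares 670 exon bases with Gm49369 on the same strand. The count table has no row under the symbols of these predicted genes. Since the annotation used for counting is not known, how reads in the shared stretches of Ctsl and Ctsd were assigned is uncertain.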

How the data were processed

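The authors deposited 1 table of counts per gene symbol for 12 libraries, which were sequenced from sorted microglia with integrity values of at least 8 per the labels' protocols. Trimmomatic 0.36, STAR 2.5.2b and the build mm9 are named per the submitters' processing notes, with no role stated; no source used here names the counting tool, annotation or strand setting. The labels give 4 mice per group and nothing on batches. No pair of libraries within a group agreed within sampling noise, so each counted once.

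Counts were filtered with edgeR's filterByExpr (minimum count 10), scaled with TMM and fitted in 1 quasi-likelihood model of the 3 groups (edgeR 4.0.16, limma 3.58.1, R 4.3.3). P-values were adjusted by Benjamini-Hochberg over 12695 genes. DESeq2 1.42.0, limma-voom, other scalings and filters, a replicate block and leaving out each library were alternatives. The script was tested on simulated data. Replicate numbers did not pair libraries (same-number r between -0.01 and 0.03).

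Lengths and GC content came from GENCODE M21 transcripts and promoters from RefSeq, both GRCm38. The members and lists were chosen with earlier results of these data known. The named genes were the members, all tested genes of the other cathepsins, up to 3 genes with the smallest p in allogeneic against syngeneic of each other list, and the 2 genes most correlated with each member; markers, overlapping neighbours and the genes of the closing observations fall outside it and were picked with their values known. The GC and length offset, the transcript used per gene, the motifs and the printed promoters were also chosen after seeing the data. A marker gene is not reported here, and the summed marker levels leave it out.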

Additional observations from a re-analysis of the deposited data

Results flagged for a closer look

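Of 30 groups of 4 libraries (10 genes in 3 groups), 1 had a library standing apart from the other 3: Ctsl in allogeneic libraries, where allogeneic 2 was at 1653 CPM and the others at 1361 to 1377, a gap of 0.945 of the range against a limit of 0.829. Chance marks about 1 in 20 such groups. Without that library the log2 fold change of Ctsl was 0.78 against syngeneic and 1.62 against control, and both stayed called.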

How the results depend on the processing

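Over 21 alternatives, members called in allogeneic against syngeneic numbered 7 to 8 (8 as reported, 7 with the replicate block), in syngeneic against control 8 to 9 and in allogeneic against control 9 to 10. The replicate block ended the Ctsd call in allogeneic against syngeneic (edgeR adjusted p = 0.0522); numbers do not pair the libraries, 4 of 12 correlating best with their own number. Library totals alone moved the median of all genes to -0.22, -0.20 and -0.44 and the split of calls to 844 higher and 2108 lower in allogeneic against syngeneic (1288 and 810 as reported). Against control it gave 2723 higher and 3968 lower in syngeneic (3357 and 3253) and 2453 higher and 5259 lower in allogeneic libraries (3576 and 3697). With library totals, signs turned for Lgmn (-0.07) and Park7 (-0.08) in allogeneic against syngeneic, for Ctsz (-0.06), Ctso (-0.07) and Samhd1 (-0.03) in syngeneic against control, and for Ctsb (-0.12), Ctsh (-0.22) and Tapbp (-0.29) in allogeneic against control. Ctsa in allogeneic against syngeneic (-0.32) and Ctsc in syngeneic against control (-0.21) became called lower. With the GC and length offset, signs turned for Park7 (-0.12) in allogeneic against syngeneic, for Ctsa (0.24), Ctsd (0.05), Ctso (-0.29), Tapbp (0.04) and Gpr34 (-0.01) in syngeneic against control, and for Ctsa (0.14), Ctsd (0.28) and Ctsh (0.00) in allogeneic against control. Leaving out 1 library put Tfec in syngeneic against control, not called at -0.56, between -2.32 (without syngeneic 2) and 0.27 (without control 4). The cause of these turns was not tested. Members called with the offset split into 6 higher and 3 lower in syngeneic and 8 higher and 1 lower in allogeneic libraries against control. All genes called with the offset split into 3185 higher and 2733 lower in syngeneic and 3324 higher and 3278 lower in allogeneic libraries. DESeq2 called Ctsh in allogeneic against control (0.19, adjusted p = 0.0408). Genes at a few counts, such as Ctsw, are limited by depth.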

Other observations

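Of the 8 partners and substrates already counted, 4 more are given here, named after their values were seen. These 4 were not followed through the alternative analyses, so their values with the GC and length offset are not given. Neu1, the sialidase that cathepsin A shields, stood at 71.0 CPM in control, 21.4 in syngeneic and 46.4 in allogeneic libraries: it fell in syngeneic against control (log2 fold change -1.73, edgeR adjusted p = 4.41e-08), rose in allogeneic against syngeneic (1.11, edgeR adjusted p = 3.55e-05) and stayed below control (-0.61, edgeR adjusted p = 0.00221). Grn, the lysosomal progranulin that cathepsins cleave, had the same course, at 2806, 1251 and 2011.5 CPM (-1.17, edgeR adjusted p = 9.21e-09, then 0.69, edgeR adjusted p = 2.75e-05), and was lower in allogeneic than in control libraries (-0.48, edgeR adjusted p = 0.000243). Glb1, the galactosidase of the cathepsin A complex, stood at 115, 102.5 and 154 CPM and was called in allogeneic libraries against syngeneic (0.59, edgeR adjusted p = 0.00126) and against control (0.42, edgeR adjusted p = 0.00463). Ifi30, the lysosomal thiol reductase of antigen processing, stood at 94.9, 85.0 and 199 CPM and was likewise called against syngeneic (1.22, edgeR adjusted p = 1.93e-07) and against control (1.07, edgeR adjusted p = 2e-07).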
